A study of Mus musculus with 14 samples.

Results

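The response of mouse mammary P5 cells to pregnancy was measured on 4 of the 14 arrays of the study: 2 of P5 cells from pregnant mice and 2 of P5 cells from virgin mice, chosen by their titles. All 4 samples were total RNA of sorted cells from wild-type FVB/N-J mice. Glands had been dissociated mechanically and with enzymes, and cells were sorted by flow cytometry. The labels describe P5 as enriched for luminal progenitors and give it the gate CD24+CD29hi, the same gate as they give for P4, the population enriched for mammary stem cells. P6 was gated as CD24lo and described as differentiated. P4 and P6, also from wild-type virgin and pregnant FVB/N-J mice with 2 arrays each, served to compare the size of the response. The age of the mice, the day of pregnancy and whether animals were pooled are not given in the sources used here. The sources do not say whether the 2 replicates of a group are different animals; p-values therefore speak only of how these arrays vary, and that variation may be technical.

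Luminal cells line the ducts and alveoli of the mammary gland. Some carry the receptors for estrogen and progesterone and pass hormone signals on to their neighbours through secreted factors such as amphiregulin, the Wnt ligand Wnt4 and RANKL. Others respond in pregnancy to prolactin, whose receptor acts through the kinase JAK2 and the transcription factor STAT5, and become alveolar cells that make milk proteins, lactose and milk fat. The question of the comparison was how the transcripts of this sorted population differ between virgin and pregnant mice.

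The promoters of 4 milk protein genes are shown first, since their spots were saturated on both pregnant P5 arrays and caseins are known targets of STAT5. Each is the stretch of 160 bases just before the gene's start, from RefSeq on build GRCm38.p6, written 5′ to 3′ on the gene's strand. Capitals mark a match to the STAT5-type motif TTCNNNGAA, which reads the same on both strands.
Csn1s1, chr5:87666048-87666207, plus strand: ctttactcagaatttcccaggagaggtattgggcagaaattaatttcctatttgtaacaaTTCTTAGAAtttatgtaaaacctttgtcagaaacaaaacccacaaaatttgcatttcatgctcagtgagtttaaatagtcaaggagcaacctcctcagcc
Csn2, chr5:87699426-87699585, minus strand: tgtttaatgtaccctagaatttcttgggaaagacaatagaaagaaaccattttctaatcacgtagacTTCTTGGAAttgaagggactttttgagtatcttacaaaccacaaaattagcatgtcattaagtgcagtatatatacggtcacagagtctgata
Glycam1, chr15:103565082-103565241, minus strand: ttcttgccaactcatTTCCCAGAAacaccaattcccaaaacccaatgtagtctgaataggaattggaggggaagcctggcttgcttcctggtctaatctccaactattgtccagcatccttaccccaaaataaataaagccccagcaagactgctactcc
Wap, chr11:6638650-6638809, minus strand: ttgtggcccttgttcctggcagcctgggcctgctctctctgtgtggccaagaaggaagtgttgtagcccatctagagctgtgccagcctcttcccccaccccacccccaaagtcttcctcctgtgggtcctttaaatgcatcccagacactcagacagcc

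The motif began 100 bases before the start in Csn1s1, 93 bases before it in Csn2 and 145 bases before it in Glycam1. In the 250 bases before the start it was found in 3 of the 7 casein and whey protein genes that have a promoter in the table (10 such genes were tested), in 0 of 9 milk fat globule genes and in 1 of 18 fatty acid genes. It was also found in 2 of 12 hormone-sensing marker genes, Esr1 and Prlr, whose transcripts were lower in pregnancy. Of all 32851 promoters in the table, 7.02% hold it in a stretch of the same length. A match is a description of the letters, and its absence from Wap says only that these letters are not in this window.

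Each array carried Cy5-labelled RNA of the sorted cells and a Cy3-labelled reference RNA, the same mix of 11 mouse cell lines on every array. A value is therefore a log2 ratio of P5 cells over that mix, and a difference of 1 is a 2-fold change. The number of arrays limits the precision. Replicate 2 of both conditions was scanned in 1 batch, replicate 1 of the virgin cells in another and replicate 1 of the pregnant cells in yet another, which lacked the extended dynamic range and had 111 saturated Cy5 spots against 0 to 15 on the other 3 P5 arrays. Across genes, which are not independent replicates, the virgin arrays correlated at 0.931, the pregnant arrays at 0.888 and arrays of different condition at 0.507 to 0.652.

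The luminal label was checked against marker genes. Trp63, which marks basal cells, was low in P5 with ratios of 0.97 and 0.41 in virgin and 1.07 and 0.45 in pregnant mice, against 6.31 and 6.82 in virgin P4. The luminal keratin gene Krt18 stood at 4.52 and 3.92 in virgin P5, against 1.18 and 0.04 in virgin P4. Elf5, a transcription factor of alveolar progenitors, was at 6.69 and 6.37 in virgin and 6.97 and 7.87 in pregnant P5. Virgin P5 was thus low in the basal marker and high in the luminal ones. In pregnant P5 the keratin markers were lower: Krt18 was at 0.35 on the 1 array with a value, and Krt8, at 0.40 and 1.55, was below pregnant P4 at 1.87 and 2.85. The same order held for the means of Krt7 (0.25 and 2.39), Krt19 (2.14 and 2.81) and Gata3 (1.85 and 2.64), so these markers did not set pregnant P5 above pregnant P4. The gene of the sorting marker CD24 (Cd24a) was at 3.67 and 3.38 in virgin P5 and at 3.90 and 3.59 in pregnant P5. Itgb1, which encodes CD29, was at -1.53 and -1.34 in virgin P5 and -0.73 and -1.56 in pregnant P5, below virgin P4 at -0.35 and -0.14. The transcript of the protein named as high in the gate was therefore lower in virgin P5 than in virgin P4, on both arrays of each.

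Pregnancy changed a large share of the P5 transcripts. Of 23645 genes tested, 5095 (21.5%) passed an adjusted p of 0.05 in limma, 2554 of them higher (10.8%) and 2541 lower (10.7%) in pregnant mice. At least 2-fold changes were seen in 1370 genes that rose and 1721 that fell, and at least 16-fold changes in 59 and 67. The replicate 2 arrays of virgin and pregnant P5 shared a scan but not a slide. On these alone, all 5092 called genes with a value there differed in the same direction. Among the 3088 of them that changed at least 2-fold, 2627 did so on replicate 2 alone as well. Those arrays had entered the test, so this is a description. Values are those of each gene's brightest probe; of 3142 other probes of the called genes, 25.3% differed in the opposite direction. The count depended on single libraries: it was 2376 without virgin replicate 1, 3219 without virgin replicate 2 and 3356 without pregnant replicate 2. It was 8403 with the scan as a block, and with median centring in place of loess 2478 genes passed, 27.7% of them higher in place of 50.1%.

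**Figure D1:**
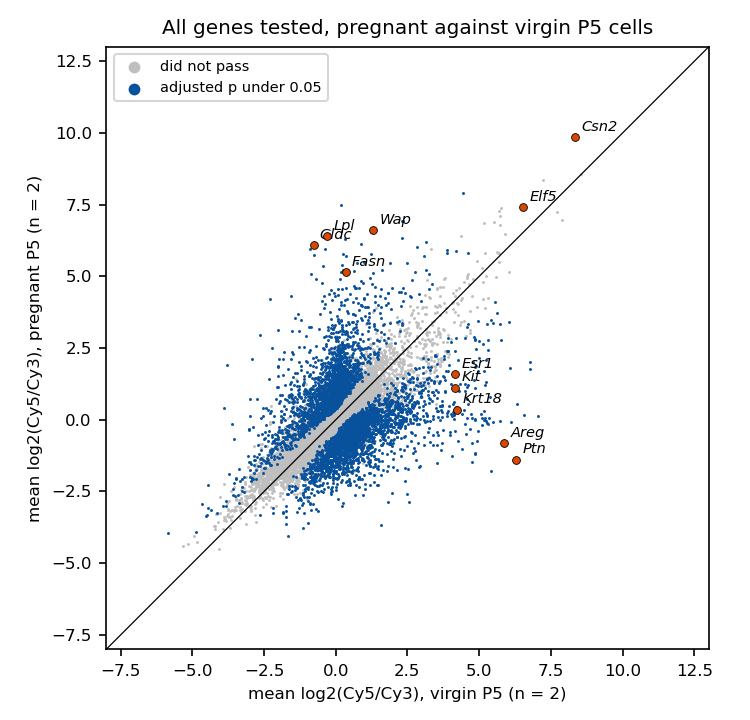
Mean log2 ratio in pregnant P5 (vertical axis) against virgin P5 (horizontal axis), 2 arrays each, for all genes tested; blue points passed an adjusted p of 0.05, grey points did not, and the line marks equal values. Gldc, Lpl, Wap and Fasn lie above the line, Ptn, Areg, Krt18, Kit and Esr1 below it, and Csn2 and Elf5 close to it at high levels in both conditions.

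The largest increase among genes measured without saturation was that of Gldc, the glycine decarboxylase of the mitochondrial glycine cleavage system. Its ratios were -0.62 and -0.93 in virgin and 5.92 and 6.24 in pregnant P5, a log2 difference of 6.86 (SE 0.348, 116-fold, adjusted p = 1.523e-05 by limma). In virgin P5 it was well above background on only 1 of 2 arrays. Slc39a8, a zinc and manganese importer, rose by 6.53 (adjusted p = 0.000131), from -0.63 and -0.91 to 5.27 and 6.25. St6gal1, which adds sialic acid to glycoproteins, went from -2.50 and -2.08 to 4.45 and 4.00, a difference of 6.51 (SE 0.254, adjusted p = 6.906e-06 by limma). The pregnant arrays lay far above the virgin arrays in all 3 genes, with no overlap. Called genes were picked here for large differences, so lack of overlap, here and below, adds no support. Its share over all genes was not counted. Other probes gave smaller differences, 1.85 and 2.01 for Slc39a8 and 1.15 for St6gal1.

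The other genes at the top have varied roles. Kcnk6, a potassium channel, rose by 6.34, and Acacb, which makes malonyl-CoA at mitochondria, by 5.97 (0.79 by its other probe). The transporter Abcg2, known to carry riboflavin and drugs into milk, had ratios of -0.46 on both virgin arrays and 5.48 and 5.27 on the pregnant ones, a difference of 5.84 (SE 0.170, adjusted p = 2.648e-06 by limma). Inmt, a methyltransferase, rose by 5.88 and Tent5c, a poly(A) polymerase, by 5.69. Cyp3a41a, a cytochrome P450, differed by 5.99, but it has near-identical copies whose RNA its probe may also bind. The remaining genes at the top, Csn1s2b (7.29), Fabp3 (6.87) and Lpl (6.69), were saturated on pregnant replicate 1 and measured on pregnant replicate 2, so their replicate 1 values rest on clipped Cy5 signals.

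Ptn, which encodes the growth factor pleiotrophin, showed the largest decrease in log2 ratio. Its ratios were 6.50 and 6.07 in virgin and -1.69 and -1.10 in pregnant P5, a log2 difference of -7.68 (SE 0.363, 205-fold lower, adjusted p = 1.192e-05 by limma). Areg, the amphiregulin gene, stood at 5.91 and 5.85 in virgin P5 and was not well above background on either pregnant array. Its log2 ratio difference was -6.70 (adjusted p = 1.005e-05 by limma). By normalized Cy5 signal, which was not the measure tested, it was at least 309-fold lower in pregnant P5. For this bound each dim array counts as its own signal or as the lowest signal well above background there, whichever is higher. Virgin and pregnant arrays did not overlap for either gene.

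The other genes with the largest decreases were these. Ly6d, a surface protein of the Ly6 family, fell by 7.21, from 5.63 and 5.19 to -2.18 and -1.42. Fgg, the gamma chain of fibrinogen, fell by 6.95, and Crym, a thyroid hormone binding protein, fell by 6.38. Ido1, the tryptophan-degrading enzyme, had the smallest error of the group: ratios of 6.21 and 6.44 in virgin and 0.59 and 0.51 in pregnant P5, a difference of -5.78 (SE 0.141, adjusted p = 1.366e-06 by limma). Tmem158 (-6.21), Phyh, a peroxisomal hydroxylase (-6.06), Hey1, a Notch target (-6.00), Samd5 (-5.78) and the water channel Aqp5 (-5.66) also fell. Aoc1, an enzyme that breaks down diamines, was not well above background on either pregnant array, with a ratio difference of -6.17. In normalized Cy5, which was not the measure tested, it was at least 114.5-fold lower. All of these genes except Tmem158 had virgin ratios within 1 unit of each other on both arrays; Tmem158 was at 5.61 and 3.88.

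**Figure D2:**
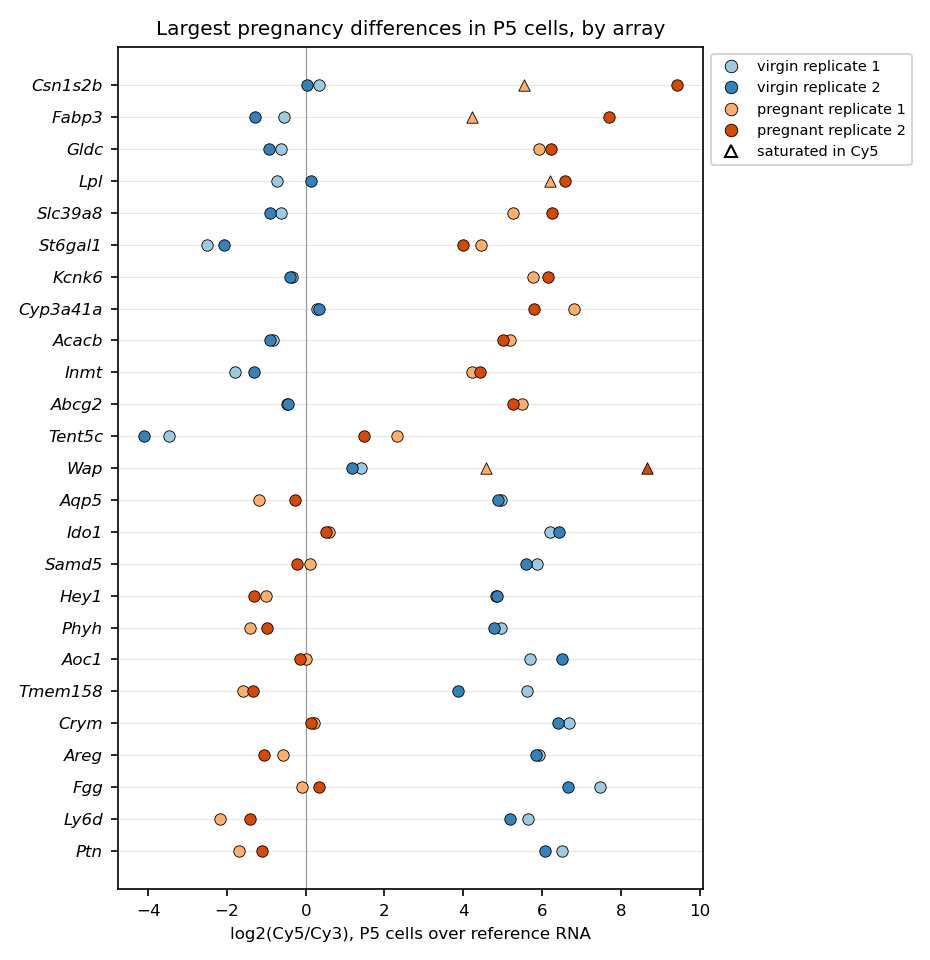
Log2 ratio on each of the 4 P5 arrays (horizontal axis) for the 12 genes with the largest increase, the 12 with the largest decrease and Wap; blue points are virgin arrays, orange points pregnant arrays and triangles saturated Cy5 spots. The 2 conditions do not overlap for any of these genes, which the choice of large called differences favours. For Csn1s2b, Fabp3 and Wap pregnant replicate 1 lies well below pregnant replicate 2.

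Milk protein transcripts were bright in pregnant P5, but their ratios were cut by saturation. Of 10 casein and whey genes tested, 9 were saturated in Cy5 on pregnant replicate 1 and 5 on pregnant replicate 2. Wap, whey acidic protein, had Cy5 intensities of 198 and 177 in virgin P5 and 64386 and 592743 in pregnant P5, both pregnant spots being saturated. Its log2 ratios were 1.42 and 1.17 in virgin and 4.58 and 8.66 in pregnant P5, a difference of 5.33 (SE 1.56, adjusted p = 0.0425 by limma). The call of Wap was lost without either virgin array or without pregnant replicate 2 (adjusted p up to 0.232), and leaving out 1 array moved the difference to between 3.29 and 7.37. Read in normalized Cy5, Wap was at least 1408-fold higher, a bound that holds for that normalization only. In Cy5 quantile-normalized on its own, the log2 difference of Wap was 9.56, a smaller fold. Csn1s2b, an alpha-S2-like casein, rose from 70 and 80 to a saturated 64386 and a measured 447592, with a ratio difference of 7.29 (SE 1.13, adjusted p = 0.00279 by limma). Wap and Csn1s2b were near the dim end in virgin P5, and both were bright on each pregnant array.

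The other caseins were already bright in virgin P5. Csn2, the gene of beta-casein, had Cy5 intensities of 24986 and 38533 in virgin P5, and Csn1s2a had 98901 and 137290. Their pregnant spots were saturated on both arrays, so the ratio differences of 1.52 for Csn2 (adjusted p = 0.601 by limma) and 0.04 for Csn1s2a (adjusted p = 0.992) rest on clipped values and did not pass the test. In normalized Cy5, Csn2 was at least 11.7-fold, Csn1s1 at least 8.76-fold, Csn1s2a at least 3.02-fold and Glycam1, a mucin-like whey protein, at least 159-fold higher. These bounds hold for that normalization only. In Cy5 quantile-normalized on its own, the log2 differences were 3.01 for Csn2, 2.31 for Csn1s1, 1.19 for Csn1s2a and 6.69 for Glycam1, all smaller folds. Csn3 (1.63), Lalba (1.13), Ltf (0.55) and Trf (0.14), the genes of kappa-casein, alpha-lactalbumin, lactoferrin and transferrin, had positive ratio differences that did not pass. Lalba was the only one of the 10 that was saturated on no array, with Cy5 intensities of 5522 and 3959 in virgin and 20021 and 41479 in pregnant P5.

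The Cy3 channel moved at these spots although it held the same reference RNA on every array. For Wap it read 38 and 40 in virgin and 2480 and 2906 in pregnant P5, and over the 10 genes the normalized Cy3 signal was higher in pregnancy by a median of 2.21 on the log2 scale, against 0.03 over all genes. A higher Cy3 signal lowers the ratio. In the ratios 2 of the 10 genes passed, both higher, with a median difference of 1.33 against 0.04 over all genes. In Cy5 alone, quantile-normalized between arrays, 8 of the 10 passed, all higher, with a median of 3.13. The median depended on 1 library: without pregnant replicate 2 it was 0.03, with 1 gene passing, and on the replicate 2 arrays alone it was 2.87. Without scan 3, 9 of the 10 passed.

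**Figure D3:**
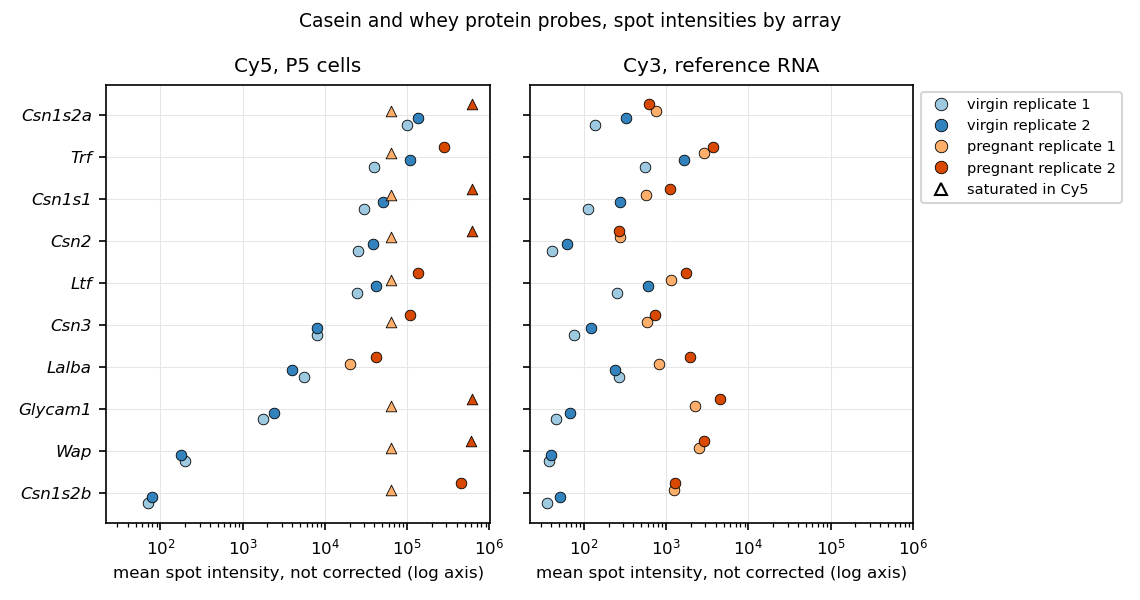
Mean spot intensity on a log axis for 10 casein and whey protein genes in Cy5 (left, P5 cells) and Cy3 (right, reference RNA), with 1 point per P5 array and triangles for saturated Cy5 spots. Pregnant replicate 1 stops at 64385 or 64386 for 9 genes, Wap and Csn1s2b are at or below 198 in virgin P5, and the Cy3 points are higher on the pregnant arrays for each gene.

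Fatty acid and triglyceride synthesis was the list with the highest median in the main fit. Of its 25 genes, 22 rose and 1 fell, with a median difference of 3.50. The counts of this and the other lists stand beside 10.8% higher and 10.7% lower over all genes. With the slide as a block the milk fat globule median was 4.3, above the highest fatty acid median of any setting (3.77). Fasn, fatty acid synthase, had ratios of 0.39 and 0.29 in virgin and 3.82 (saturated) and 6.47 in pregnant P5, a difference of 4.81 (SE 0.684, adjusted p = 0.00178 by limma). Lpl, the lipoprotein lipase that frees fatty acids from blood lipids, went from -0.72 and 0.13 to 6.21 (saturated) and 6.59, a difference of 6.69 (SE 0.430, adjusted p = 3.98e-05 by limma). Both pregnant arrays were above both virgin arrays in Fasn and Lpl.

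The rise ran along the pathway. Slc25a1, which exports citrate from mitochondria, rose by 4.62, Acly, which splits citrate, by 4.35, and Acaca, the cytosolic acetyl-CoA carboxylase, by 4.71. Olah, the thioesterase that ends chains at medium length in milk, rose by 5.17, from 0.04 and 0.43 to 5.16 and 5.64. Scd1 (5.34, saturated on pregnant replicate 1), Fads1 (3.83) and Fads2 (4.32) place double bonds, and Acsl1 (5.26) activates fatty acids. Fabp3, a fatty acid binding protein, differed by 6.87. Srebf1, a regulator of lipid genes, rose by 1.65. Dgat2, which makes triglycerides, fell by 3.96, from 3.97 and 3.08 to 0.57 and -1.43, while Dgat1, the other enzyme of that step, rose by 2.16. Elovl6 (1.36) and Gpam (0.30) did not pass. Dgat2 lost its call without virgin replicate 1 or pregnant replicate 2 (adjusted p up to 0.104), and Dgat1 without virgin replicate 1 (0.0511). Other probes of Acaca gave 0.76 to 1.80 and that of Acly 0.68.

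Milk fat globule and secretory genes gave 10 of 14 higher and none lower, with a median of 2.86; 6 of the 14 were saturated on a pregnant array. Cd36, a fatty acid transporter of the globule membrane, went from -0.48 and -0.91 to 5.17 and 4.61, a difference of 5.59 (SE 0.414, adjusted p = 7.631e-05 by limma). Slc34a2, a phosphate transporter, rose by 4.98, Pigr, which carries antibodies into milk, by 4.71 and Xdh, a globule membrane enzyme, by 4.61. Btn1a1, butyrophilin, was already at 2.51 and 2.70 in virgin P5 and reached 3.93 and 4.69; it lost its call without either virgin array or without pregnant replicate 2 (adjusted p up to 0.135). Spp1 (2.93, saturated on both pregnant arrays), Muc15 (1.04), Mfge8 (0.45) and Wfdc18 (0.10) did not pass, the last 3 with virgin ratios between 4.29 and 6.08.

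Lactose and cholesterol genes rose in part. Of 10 genes of lactose synthesis and glucose use, 5 rose and none fell (median 1.17). B4galt1, the galactosyltransferase that forms lactose with alpha-lactalbumin, went from 0.96 and 0.65 to 4.79 and 4.42, a difference of 3.80 (SE 0.332, adjusted p = 0.000171 by limma). Ugp2 (1.61), which makes UDP-glucose, and the hexokinase Hk2 (1.53) rose too, whereas Hk1 (-0.88) did not pass. The 2 other probes of B4galt1 gave 0.00 and 4.02. Hk2 lost its call without any 1 of the 4 arrays (adjusted p up to 0.144), and Ugp2 without either virgin array or pregnant replicate 1 (up to 0.132). In cholesterol synthesis 10 of 21 rose and 1 fell (median 1.00). The largest rise was that of Insig1 (4.96), a sterol-regulated brake on the pathway, followed by Fdps (2.95), Mvd (2.81) and Sqle (2.46); Hmgcs1 (0.22), which acts early in the pathway, did not pass. The other probe of Fdps gave 0.06, and Mvd lost its call without virgin replicate 1 (adjusted p = 0.0514).

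Markers of hormone-sensing luminal cells fell in the same P5 samples. Of 15 tested, 11 were lower and 1 higher in pregnancy, with a median difference of -2.62. Esr1, the estrogen receptor gene, had ratios of 4.63 and 3.69 in virgin and 1.51 and 1.67 in pregnant P5, a difference of -2.57 (SE 0.584, adjusted p = 0.0155 by limma). Pgr, the progesterone receptor gene, was at 2.68 and 2.73 and then not well above background, a ratio difference of -2.80 (adjusted p = 1.264e-05 by limma). In normalized Cy5, which was not the measure tested, Pgr was at least 6.86-fold lower. Prlr, the prolactin receptor gene, went from 5.82 and 5.60 to 2.97 and 3.69, a difference of -2.38 (SE 0.482, adjusted p = 0.00942 by limma). Virgin and pregnant arrays did not overlap for these 3 receptors. A second probe of Esr1 gave a difference of 0.05, and that of Pgr -0.84. The other probes of Prlr ran from -3.30 to -2.01, and over the alternative settings its difference ran from -3.92 to -0.21. Esr1 lost its call without virgin replicate 1 or either pregnant array (adjusted p up to 0.114), and Prlr without replicate 1 of either condition (up to 0.0651). In these bulk samples fewer cells of a type and less RNA per cell cannot be told apart.

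Other markers of these cells included transcription factors and signals. Tbx3 fell by 5.02, from 3.86 and 3.18 to -1.58 and -1.41 (-0.36 by its other probe), and Cited1, a cofactor of the estrogen receptor, by 3.85. Foxa1, which opens chromatin for the estrogen receptor, was not well above background in pregnant P5. Its ratio difference was -4.105 (adjusted p = 0.000307 by limma). In normalized Cy5, which was not the measure tested, it was at least 46.2-fold lower. Prom1, a surface marker of hormone-sensing cells, was not well above background there either. Its ratio difference was -4.51, and in normalized Cy5 it was at least 21.6-fold lower. Wnt4, which relays the progesterone signal, went from 1.77 and 2.20 to -1.95 and -1.32, a difference of -3.62 (SE 0.305, adjusted p = 0.000142 by limma). Xbp1, also a factor of secretory cells, was the 1 member that rose (2.83); it lost its call without replicate 1 of either condition (adjusted p up to 0.098). Tff3 (0.11), Calca (-0.02) and Greb1 (-0.29) did not pass.

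Downstream of the prolactin receptor, transcript levels mostly did not pass the test. Of 15 genes of the prolactin and STAT5 axis none rose and 3 fell (Prlr, Gata3 and Jak2). Stat5a was at 2.40 and 2.64 in virgin and 2.93 and 2.59 in pregnant P5, a difference of 0.24 (SE 0.194, adjusted p = 0.439 by limma), and its arrays overlapped. Elf5, a factor that acts with STAT5, differed by 0.90 (adjusted p = 0.268) and Cish, a STAT5 target, by 0.88. Jak2 fell by 1.18 (adjusted p = 0.0436), a call lost without any 1 of the 4 arrays (adjusted p up to 0.182).

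The EGF family split between its members. Egf itself rose from -0.33 and -0.52 to 4.23 and 4.38, a difference of 4.72 (SE 0.144, adjusted p = 2.648e-06 by limma). Areg and Btc, ligands of the EGF receptor, fell. Btc had a ratio difference of -2.19 and fell to a level not well above background. In normalized Cy5, which was not the measure tested, it was at least 4.43-fold lower. The receptors Erbb3 (-2.60), Erbb2 (-2.14) and Egfr (-1.26) fell as well, while Erbb4 (0.17) did not pass. In all, 1 of 12 rose and 5 fell. Other probes gave -0.46 to -0.15 for Erbb3, -0.56 for Erbb2 and -0.28 to 1.04 for Egfr, which lost its call without replicate 1 of either condition (adjusted p up to 0.0776).

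Of the general luminal markers more fell than rose in pregnant P5. Of 16 general luminal markers 9 fell and 1, Muc1, a mucin of the apical membrane, rose by 2.46; the median was -1.80. Krt8 went from 3.33 and 4.31 to 0.40 and 1.55, a difference of -2.85 (SE 0.493, adjusted p = 0.00463 by limma). Krt18, its partner in keratin filaments, went from 4.52 and 3.92 to 0.35 on pregnant replicate 1; its spot on pregnant replicate 2 was an outlier and left out, so that difference of -3.87 rests on 3 arrays. Krt7 (-3.62), Krt19 (-2.87), Gata3, a luminal transcription factor (-2.99), Grhl2 (-2.77; -0.77 and -0.20 by other probes) and Cdh1, E-cadherin (-2.53), fell too. Over all 39 keratin genes tested 4 rose and 6 fell (median 0.03), and over 24 claudins 1 rose and 5 fell; both families were looked at after their values were seen. Cd24a (0.22, adjusted p = 0.750) and Epcam (-0.56, adjusted p = 0.212), which also mark epithelium, did not pass by limma.

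Among 17 markers of luminal progenitors and alveolar cells none rose and 3 fell. Kit, the receptor that marks luminal progenitors, had ratios of 4.01 and 4.30 in virgin and 0.54 and 1.70 in pregnant P5, a difference of -3.03 (SE 0.422, adjusted p = 0.00162 by limma). Aldh1a3, which makes retinoic acid, fell by 3.92 with pregnant arrays at 0.33 and 2.28. Hey1, described above, was the remaining one. Both pregnant arrays were below both virgin arrays for Kit and Aldh1a3. A second probe of Aldh1a3 gave a difference of 0.02, and its call was lost without either virgin array or without pregnant replicate 1 (adjusted p up to 0.117).

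Receptors and targets of the Notch pathway fell where they changed: 7 of 18 were lower and none higher (median -0.48). Notch1 fell by 3.32, from 3.18 and 2.37 to -0.56 and -0.54, Jag1, a Notch ligand, by 2.71 and Notch2 by 1.61 by their brightest probes. A second probe of Jag1 gave 0.05, and the 2 other probes of Notch2 gave 0.03 and 1.37. Among the other called members, Nrarp (-1.48) lost its call without any 1 of the 4 arrays. Rbpj (-1.42) lost it without virgin replicate 1 or either pregnant array, and Hey2 (-0.82) without virgin replicate 2 or either pregnant array. Notch2 lost its call without replicate 1 of either condition (adjusted p up to 0.0566). Among 32 Wnt pathway genes 3 rose and 5 fell, shares not far from the 10.8% and 10.7% over all genes. The secreted antagonist Sfrp1 rose by 3.29, from 0.64 and 0.89 to 3.75 and 4.37. Fzd1 (-1.71) and Lgr6 (-1.58), which are receptors, were lower. The other probe of Sfrp1 gave 1.00, and Lgr6 lost its call without virgin replicate 2 or either pregnant array (adjusted p up to 0.155). In the IGF axis 2 of 14 rose and 5 fell. Of those that fell, Pappa (-0.60) lost its call without any 1 of the 4 arrays. Stc1 (-0.55) lost it without either virgin array or pregnant replicate 2, and Irs1 (-1.21) without virgin replicate 2 or pregnant replicate 1. Igf1, a growth factor, rose by 2.59, from -1.73 and -2.14 to 0.31 and 1.00, and Igfbp2 by 1.83, whereas Stc2, an inhibitor of IGF binding protein cleavage, fell by 3.14 and Igfbp5 by 2.65. Igfbp5 was -4.09 without pregnant replicate 2 and -1.20 without pregnant replicate 1, and lost its call without either virgin array (adjusted p up to 0.153). Igfbp2 lost its call without either virgin array or pregnant replicate 1 (up to 0.103), and the other probes of Igf1 gave 0.00 and 1.80.

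Metabolic genes around Gldc moved in part. Of 13 genes of glycine, serine and one-carbon metabolism 4 rose and none fell. Gnmt, glycine N-methyltransferase, went from 0.03 and 0.11 to 3.51 on both pregnant arrays, a difference of 3.44 (SE 0.154, adjusted p = 9.024e-06 by limma). Gcsh, the carrier protein of the glycine cleavage system, rose by 1.82 and Aldh1l2 by 1.41 (0.62 by its other probe). Psat1 (1.22), of serine synthesis, and the folate enzymes Shmt1 (0.30) and Shmt2 (0.20) did not pass.

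Amino acid transporters changed in both directions, with 5 of 17 higher and 4 lower. Slc7a8 (2.03) and Slc7a5 (1.73), which carry large neutral amino acids, rose; Slc38a1 (-2.06) and Slc7a2 (-1.92) fell. Of 22 genes of the unfolded protein response and protein folding 6 rose, among them Xbp1, Manf (1.56), Ero1a (1.55) and the chaperone Hspa5 (1.49), and Canx (-1.62; -0.10 and 0.96 by other probes) fell. Hspa5 lost its call without any 1 of the 4 arrays (adjusted p up to 0.180). Slc7a8 lost it without virgin replicate 1 or pregnant replicate 2 (up to 0.0585), and Slc38a1, whose 5 other probes gave -2.01 to 0.56, without virgin replicate 1 (0.0502). Of 30 cell cycle genes 2 rose, a lower share than the 10.8% over all genes. They were Mki67, the Ki-67 gene, at -3.77 and -1.98 in virgin and -0.12 and -0.37 in pregnant P5 (difference 2.63, SE 0.618, adjusted p = 0.0181 by limma), and E2f1 (1.13). The median of that list was 0.45 in all and -0.09 on the replicate 2 arrays alone, and Mki67 did not pass without virgin replicate 1 or without either pregnant replicate, nor E2f1 without virgin replicate 1; the Mki67 difference was 1.73 without virgin replicate 1.

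**Figure D4:**
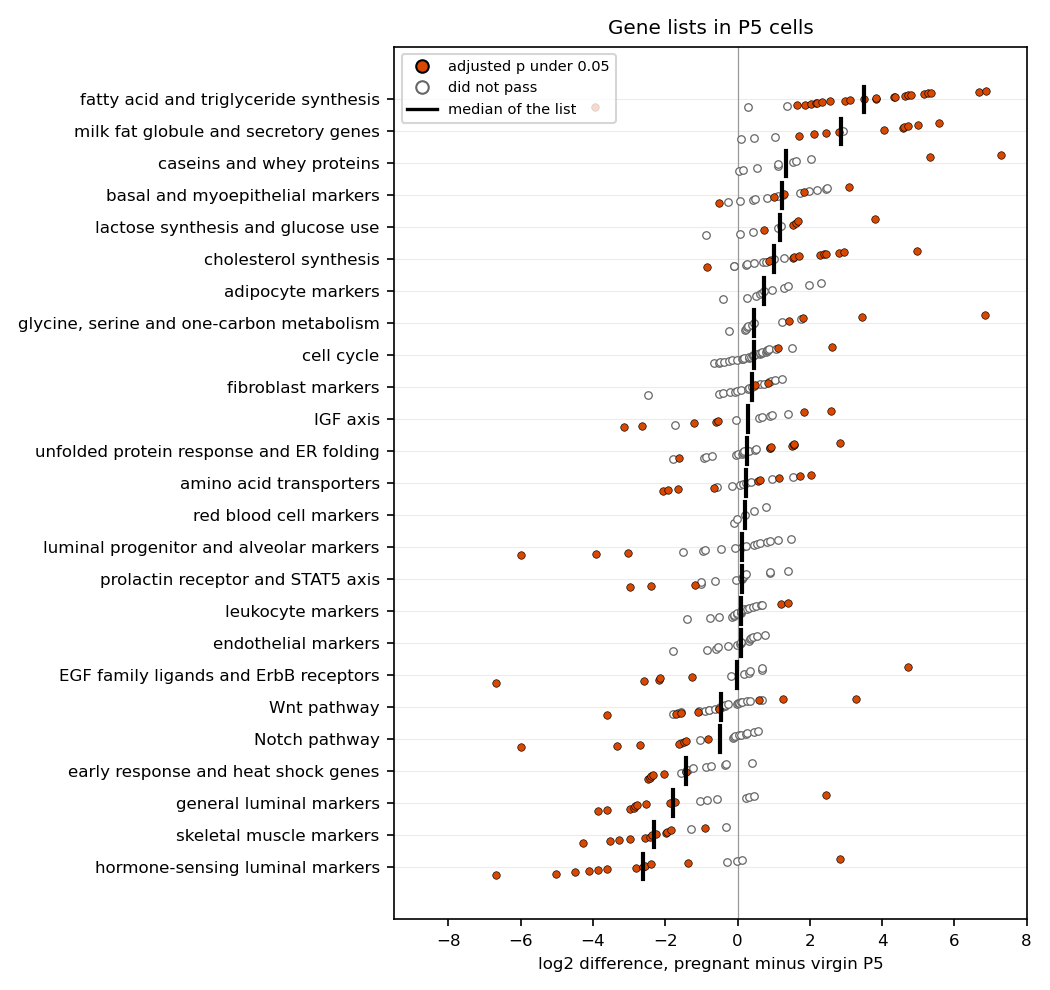
Log2 difference between pregnant and virgin P5 (horizontal axis) for each gene of 25 lists (1 point per gene; filled points passed an adjusted p of 0.05), with the median of each list as a black bar. The medians run from -2.62 for hormone-sensing luminal markers to 3.50 for fatty acid and triglyceride synthesis.

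Markers of other cell types were read in the same samples. Of 14 skeletal muscle genes 12 were lower in pregnant P5 and none higher (median -2.31), among them Myl1 (-4.28) and Tnnc2 (-3.52); their summed Cy5 signal was 31253 to 45390 in virgin and 3013 to 8431 in pregnant P5. Early response genes, which dissociation can induce, gave 6 of 15 lower and none higher (median -1.44), with Egr1 at 2.78 and 2.14 in virgin and -0.32 and 0.47 in pregnant P5 and a summed signal of 524552 to 586574 against 212867 to 242424. The calls of Fos, Jun, Egr2, Junb and Nr4a1 were each lost in some fit that left out 1 P5 array, while that of Egr1 was not. When 1 array was left out, the difference of Fos ran from -1.83 to -1.04 and that of Jun from -3.06 to -1.64. Virgin P5 was above pregnant P5 on both arrays for both summed signals. The part of these cells and of this response in the differences above was not tested.

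Basal and myoepithelial markers had a median of 1.24, with 4 of 17 higher (Mylk 3.08, Snai2 1.84, Itga6 1.28 and Cdh3 1.02) and 1 lower (Lgr5, -0.53), and a summed signal of 19824 to 26106 in virgin and 53291 to 88961 in pregnant P5. Itga6 and Lgr5 lost their calls without any 1 of the 4 arrays (adjusted p up to 0.206 and 0.245), Mylk without either virgin array or pregnant replicate 1 (up to 0.146) and Cdh3 without replicate 2 of either condition (up to 0.0534). Other probes gave 0.01 and 3.20 for Mylk and -0.54 and 1.93 for Itga6. Their defining genes Krt14 (1.11), Krt5 (1.24) and Trp63 (0.07) did not pass. Adipocyte markers, with 0 of 11 called, summed to 19090 to 28650 in virgin and 39579 to 83103 in pregnant P5. Fibroblast markers (2 of 19 higher; 28179 to 29876 and 26501 to 38447), leukocyte markers (2 of 21 higher; 10549 to 13436 and 11838 to 12635), endothelial markers (0 of 15; 6021 to 6670 and 5372 to 8141) and red blood cell markers (0 of 5; 961 to 1144 and 1636 to 1882) completed the set. In each of these lists every gene tested was well above background on at least 1 P5 array, and their part in the differences was not tested. The shares of fibroblast and leukocyte genes called higher were no larger than the 10.8% over all genes.

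The P5 response was compared with that of P4 and P6 in the same fit. The same contrast passed in 885 genes in P4 (3.74%) and 44 in P6 (0.186%). A test of the difference itself found 1919 genes (8.12%) whose pregnancy effect differed between P5 and P4, 932 more positive (3.94%) and 987 more negative (4.17%) in P5. Against P6 it found 1736 genes (7.34%), 905 more positive (3.83%) and 831 more negative (3.51%) in P5. Both counts depended on the virgin arrays of scan 1: without those 3 arrays they were 46 and 87. With median centring they were 649, of which 13.4% were more positive in P5, and 291, of which 37.1% were. Arrays of the same number share a scan within a condition, which the main fit did not model. With a replicate block within each condition the 2 counts were 6231 and 5323.

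The genes with the largest change in P5 mostly changed more there. Of the 12 that rose most and the 12 that fell most, 20 differed from P4 and 20 from P6, a count that their selection on the P5 effect favours. Csn1s2b and Fabp3, both saturated on pregnant replicate 1 of P5, and Ly6d and Aqp5 passed neither test. Crym, Ido1 and Aoc1 had pregnant means of 0.55 or less in all 3 populations. Their larger falls in P5 therefore follow their virgin means, for Crym 6.55 in P5, 3.22 in P4 and 2.55 in P6. The Gldc effect of 6.86 in P5 stood beside 3.28 in P4 and 0.73 in P6 (adjusted p of the difference 0.00500 and 0.000484 by limma). St6gal1 rose by 6.51 in P5 against 0.61 and 0.31 in the others, and Ptn differed by -7.68 against -2.20 and -3.36. The Wap effect was 5.33 in P5, 5.23 in P4 and 6.27 in P6; Wap was saturated on at least 1 pregnant array of each population, so these clipped values cannot be compared in size.

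By gene list, 11 of 25 fatty acid genes rose more in P5 than in P4 and 17 more than in P6, and none less. For hormone-sensing markers 7 of 15 fell more in P5 than in P4 and 7 more than in P6. General luminal markers were more negative in P5 than in P4 in 7 of 16 and than in P6 in 1, and skeletal muscle markers in 9 and 7 of 14. No casein or whey gene passed either test, but 9 of the 10 were saturated on a pregnant P5 array. Their clipped ratios cannot show whether the effects differ.

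**Figure D5:**
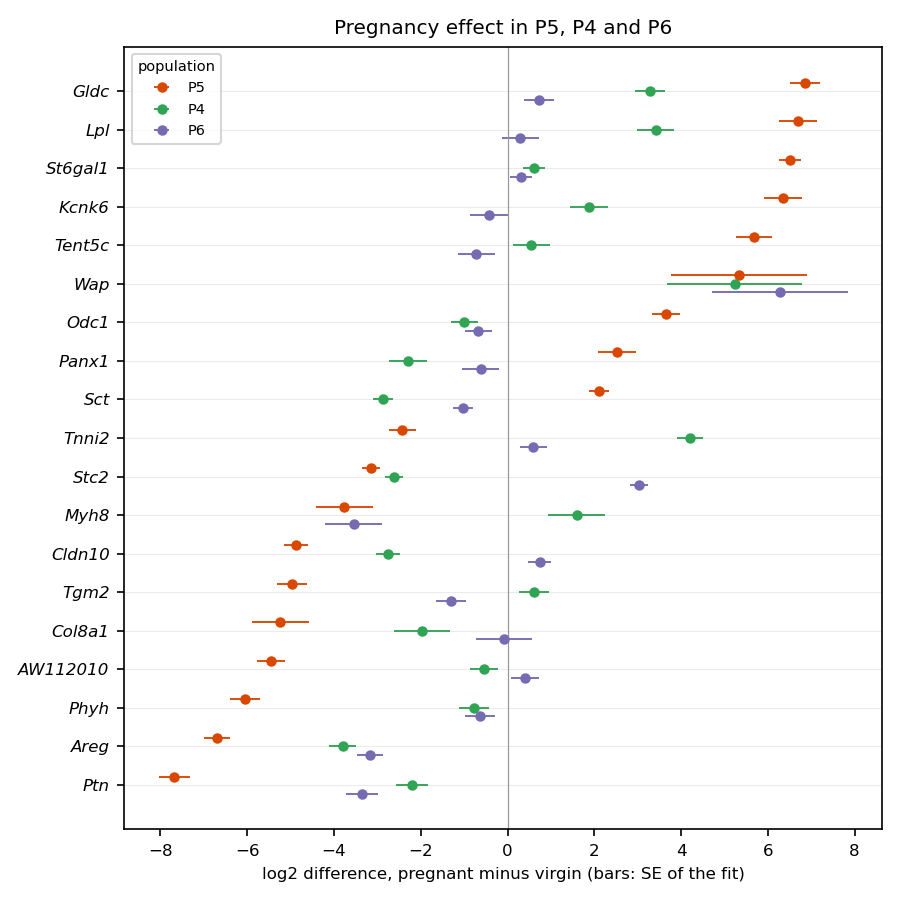
Log2 difference between pregnant and virgin cells in P5 (orange), P4 (green) and P6 (purple), with bars for the standard error of the fit, for Wap, Gldc, Lpl, Ptn, Areg and the genes whose P5 effect differed most from that in P4 or P6. P5 lies farthest from 0 for Gldc, Lpl, St6gal1, Kcnk6, Tent5c, Phyh, Areg and Ptn, while the Wap values rest on saturated spots in each population. Areg was not well above background on any pregnant array of the 3 populations, so its differences follow its virgin levels.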

How the data were processed

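Total RNA of sorted cells (Cy5) and a reference RNA (Cy3) were hybridised together on 2-colour Agilent arrays, per the labels' protocols. The authors deposited spot intensity values and log10 ratios from Agilent Feature Extraction 9.5.3.1, per the file headers, and a series table of log2 ratios deposited by the authors, used only as an alternative. In that table the columns tracked the scanner ratios of their arrays at r of 0.990 or more, with P5 column medians of -0.00165, -0.0182, -0.0167 and 0.102; its centring is not stated.

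Mean intensities were corrected with normexp (offset 50; local backgrounds marked as non-uniform outliers were replaced by the array's median, a step chosen after seeing the data) and normalized by loess within arrays in R 4.3.3 with limma 3.58.1. Outlier spots were left out and spots averaged per probe. A probe was kept when, in some group of the 6, all arrays had its Cy5 signal well above background (34805 of 41174). A gene was read from its brightest probe. The linear model of limma was fitted to 12 arrays in 6 groups, with Benjamini-Hochberg adjusted p under 0.05 as the call. "At least" folds set the bright group against, per dim array, the higher of the probe's own signal and the lowest signal well above background, in normalized Cy5. They hold for that normalization only and are open to dye bias since no dyes were swapped. The code of the fit was run on simulated data with known changes and independent noise, which does not check it for shared scans.

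Gene names came from the array files and the RefSeq table of GRCm38.p6, which held 18032 of the 23645 genes tested. Genes were named by rule: Wap, Gldc, Lpl, Ptn and Areg; the 12 largest called differences each way that were at least 1 on replicate 2 alone; up to 4 called members of each list with fixed markers; and the 5 largest called differences between populations each way. Other list members are named to fill out a pathway. The members and gene lists were chosen with earlier results of these data known. Replicate numbers did not pair virgin with pregnant arrays (correlation of deviations 0.087 in P5), but arrays of the same number deviated together across populations within a condition (0.300 to 0.679 in virgin and 0.630 to 0.686 in pregnant mice), where they share a scan. The 2 arrays of GFP-sorted cells were not used. Alternatives covered the arrays used, blocks, normalization, background, filters and probes. Results of some list members are not reported here.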

Additional observations from a re-analysis of the deposited data

Results flagged for a closer look

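The pregnancy effect differed between P5 and P4 in 1919 genes and between P5 and P6 in 1736 genes by the interaction test in limma. The values below are differences between 2 pregnancy effects on the log2 scale, P5 minus the other population, and each passed that test.

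Against P4, the effect in P5 was more positive by 3.577 in Gldc, 3.279 in Lpl, 5.901 in St6gal1 and 5.139 in Tent5c. It was more negative in Ptn (-5.48), Areg (-2.893), Phyh (-5.286) and Tgm2, a transglutaminase (-5.592). Areg was not well above background on any pregnant array of P4, P5 or P6. Its differences from P4 and P6 therefore follow its virgin means, 5.88 in P5, 2.68 in P4 and 2.17 in P6. The effect was also more negative in 2 muscle genes. These were Tnni2 (-6.635), which differed by -2.43 in P5 and 4.21 in P4, both called, and Myh8 (-5.355), whose P4 effect did not pass and whose second probe gave 0.07 in P5. Sct, the secretin gene (4.98), Panx1, a membrane channel (4.817), and Odc1, the first enzyme of polyamine synthesis (4.652), were more positive in P5. For Sct the effects were 2.10 in P5 and -2.88 in P4, and for Panx1 2.52 and -2.29, all called; the P4 effect of Odc1 (-0.99) did not pass.

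Against P6, the effect was more positive in Gldc (6.129), Lpl (6.401), St6gal1 (6.205), Kcnk6 (6.77) and Tent5c (6.406). It was more negative in Ptn (-4.318), Areg (-3.525), Phyh (-5.432), AW112010 (-5.846), the claudin gene Cldn10 (-5.618) and the collagen gene Col8a1 (-5.154). Stc2 (-6.178) differed by -3.14 in P5, -2.63 in P4 and 3.04 in P6.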

How the results depend on the processing

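The number of P5 genes called (5095) ranged from 2376 to 3456 when 1 P5 array was left out, and the counts against P4 (1919) and P6 (1736) from 915 to 1553 and from 832 to 1417. Without the 3 virgin arrays of scan 1 the counts were 1079, 46 and 87. The scan as a block gave 8403, 6231 and 5322, and the slide as a block 3396, 4306 and 5009. A replicate block gave 6562, 2959 and 2541, and the same block within each condition 9677, 6231 and 5323; the numbers do not pair the conditions. Median centring gave 2478, 649 and 291, and turned Col5a1 to -0.1012. Local backgrounds as given left 3339 in P5 (40.0% higher) and 886 against P4. Cy5 alone gave 3473 against P4 and 2938 against P6, and only the arrays compared 3385 in P5 and 1047 against P6. The cause of these shifts was not tested.

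Of 106 named genes called, 50 kept their call in every fit. Most losses came without the 3 virgin arrays of scan 1, which leaves 1 virgin array a group. Among the calls lost there were those of Fasn, Krt8, Krt7, Gata3, Kit, Xdh, Insig1, Csn1s2b and Fabp3. Of 25 list medians, 15 kept their sign in each of 23 settings. Wap ranged from 3.28 to 9.56 and lost its call in 10 settings. Saturation limits the milk genes. Among the 12 largest decreases, signals not well above background in pregnant P5 bound those of Areg and Aoc1.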

Other observations

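The families below were chosen after their values were seen and carry no test as groups. Over all genes 10.8% were called higher and 10.7% lower. Serum amyloid A genes, known as acute phase proteins, were higher in pregnant P5 in 3 of 4 members. Saa1 had ratios of -0.25 and -0.72 in virgin and 4.22 and 5.29 in pregnant P5, and Saa3 differed by 5.06. Saa1 and Saa2 are near-identical, so their probes may share RNA. Of the fibrinogen chains, Fgb went from 5.40 and 5.18 to -0.29 and 0.07 beside the fall of Fgg, while Fga (0.32) did not pass.

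Transporters of zinc, calcium and water changed in part. Of 8 zinc exporters of the Slc30 family 2 rose and 1 fell. Slc30a2, a zinc exporter, went from 0.21 and 0.47 to 4.13 and 5.08, and Slc30a4 rose by 1.80 while Slc30a1 fell by 1.39. Of 13 zinc importers of the Slc39 family 5 rose. Of 10 genes of calcium entry and pumping 4 rose, with a median of 0.05 over the 10. Atp2b2, the calcium pump of the apical membrane, went from 0.19 and 0.33 to 4.59 and 5.87, and the calcium channel gene Orai1 rose by 2.31. Of 11 aquaporins 3 rose and 1 fell. The water channel Aqp3 rose by 3.97 in the samples where Aqp5 fell. Among 24 claudins 5 fell, led by Cldn10 (-4.88), and 1 rose. Of 13 sialyltransferases 5 rose and none fell.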
